A study of Mus musculus with 48 samples.

Results

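The 46 genes described here encode the actin cytoskeleton of a moving cell: actins, the proteins that bind, nucleate, cap and bundle them, the signalling proteins that steer them and the myosins and linkers that put them to work. They were taken by name from the deposited expression table, where all 46 were found among 34643 rows. The cells were ER-Hoxb8 cells from mouse bone marrow, myeloid progenitors that an oestrogen-regulated Hoxb8 protein holds in an immature, dividing state. RNA was sequenced from 24 clones, each as 1 progenitor library (marked plus, granulocyte-monocyte progenitor cells) and 1 library of monocytic cells of the same clone (marked minus), giving 48 libraries. The progenitors were kept in RPMI medium with serum, antibiotics and stem cell factor. All groups share the Hoxb8 transgene, and each clone descends from 1 cell. The sources used here give no mouse strain, age or sex, and do not say how the monocytic cells were made. Each clone gave 1 culture per state, so all p-values below rest on the spread between clones.

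Actin exists as single molecules and as filaments. Thymosins hold the single molecules in reserve, profilin passes them to growing filament ends, the Arp2/3 complex starts branches, formins and Ena/VASP proteins lengthen unbranched filaments, and gelsolin family proteins cut or cap them. In monocytes and their descendants this machinery drives crawling, adhesion and phagocytosis.

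Levels are given in TPM, a gene's share of the transcripts of a library after correction for transcript length, scaled to a fixed total. Because TPM are shares, a gene's value also falls when other genes take more of the library, and in bulk RNA fewer cells of a type and less RNA per cell cannot be told apart. Markers of the 2 states went with the labels in part. All 6 progenitor markers, Cd34 and Kit among them, were lower in the monocyte libraries, and 8 of 9 monocyte and macrophage markers were higher (Ccr2 was lower), with summed levels of 59.1 to 1351 TPM in progenitors and 2159 to 20698 TPM in monocytes. All 8 neutrophil markers rose as well, from summed levels of 3.39 to 10723 TPM to levels of 344 to 184553 TPM, so the monocyte libraries also carried neutrophil genes. Mast cell and basophil markers summed to 329 to 2977 TPM in progenitors and 0.326 to 2079 TPM in monocytes, with all 5 tested lower. Eosinophil markers summed to 0.419 to 129 TPM and 0.331 to 1155 TPM, with all 3 tested higher. Erythroid and megakaryocyte markers summed to 57.5 to 425 TPM in progenitors and 1.66 to 601 TPM in monocytes, with 3 of 4 tested lower. Lymphoid markers summed to 25.3 to 201 TPM and 2.99 to 121 TPM, with 1 of 4 tested higher and 3 lower. Stromal and endothelial markers summed to 17.5 to 53.9 TPM and 12.6 to 57.2 TPM, with 3 of 5 tested higher and 2 lower. Cd3e and Col3a1 were at 0 in every library. The part of these other cell types in the changes below was not tested.

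The actin genes rose almost as a whole. Of the 46 genes, 44 were higher in monocytes, none was lower and 2, Wasf2 and Sptbn1, passed the test in neither direction (limma on log2(TPM + 1) with the clone as a block, 2-sided, Benjamini-Hochberg adjusted p under 0.05 over all 11072 genes with a mean of at least 1 TPM). All 46 passed that filter on low values. Over all genes tested, 32.4% were higher in monocytes by the same test and 36.5% were lower, 68.8% in either direction. The median log2 change was 1.16 over the 46 genes and -0.06 over all genes tested. A change of at least 2-fold upward was reached by 30 of the 46, against 16% of all genes. Together the 46 genes made up 1.15% ± 0.238 of the TPM in progenitors and 3.69% ± 1.20 in monocytes (SD, n = 24 each). Without Actb the shares were 0.653% ± 0.115 and 1.76% ± 0.413. Predicted (Gm) entries took 32.0% ± 2.85 of the TPM in progenitors and 23.5% ± 3.33 in monocytes, which bears on the shares of the other genes. With mitochondrial, Gm and pseudogene entries taken out of the totals, the median log2 change was 0.93 over the 46 genes and -0.25 over all genes.

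**Figure D1:**
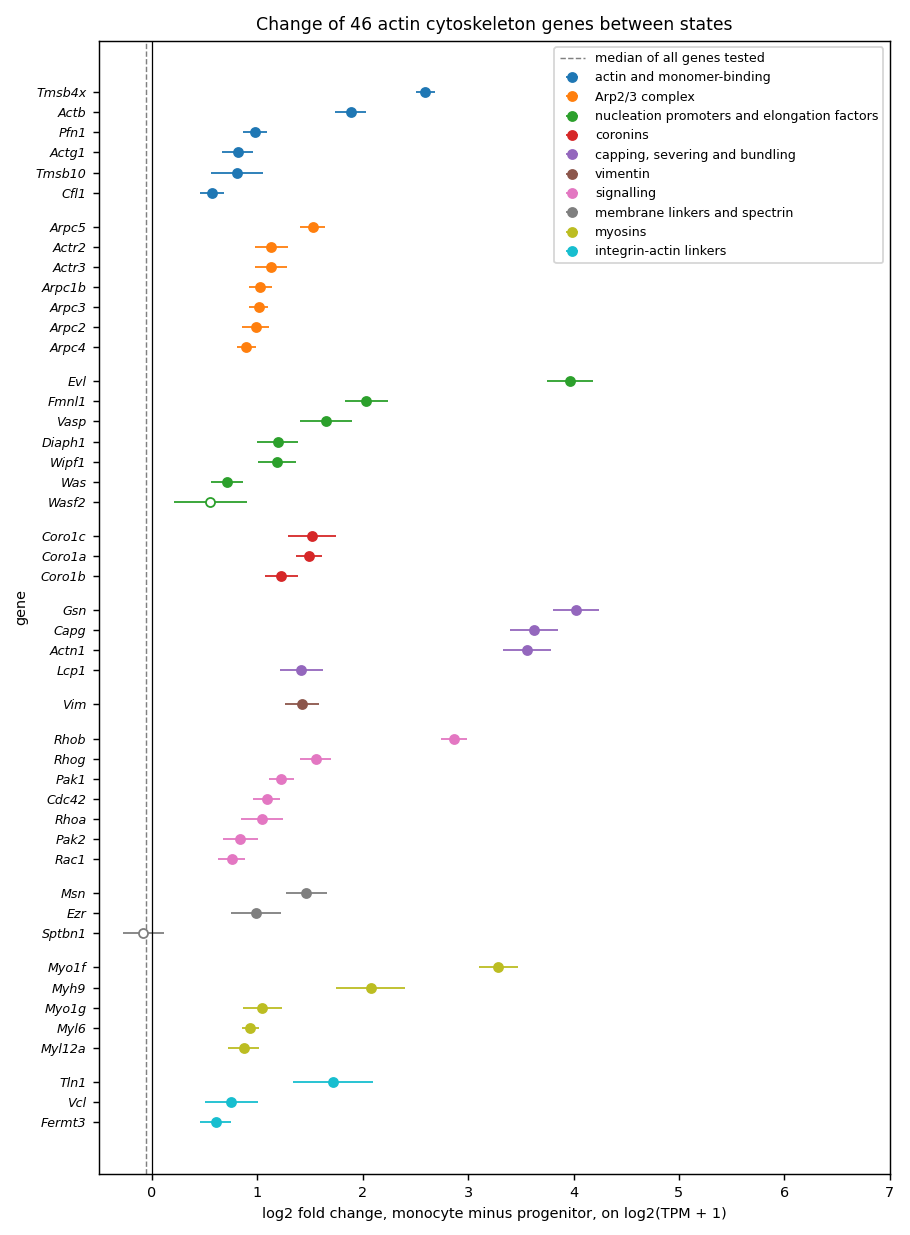
Log2 fold change from progenitor to monocyte of each of the 46 genes, on log2(TPM + 1), with its standard error, by role. Filled points passed the test, the open points are Wasf2 and Sptbn1, and the dashed line is the median of all genes tested at -0.06; Evl, Gsn, Capg, Actn1 and Myo1f lie above 3.

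In single libraries the states seldom separated fully. For 5 genes, Tmsb4x, Arpc5, Gsn, Rhob and Myo1f, every monocyte library stood above every progenitor library, as it did for 1.14% of all genes tested. In 16 of the 46 genes the monocyte library was the higher one in all 24 clones, against 7.14% of all genes. A few libraries set many of the extremes. The progenitor library of clone 24 was the lowest of its state for 32 of the 46 genes, with 16.7% of its TPM on mitochondrial genes. Among monocytes clone 20 was the highest for 25 genes and clone 19 the lowest for 17, with 1.98% and 19.2% mitochondrial TPM. Monocyte clone 8 was the lowest for 11 genes and clone 22 for 9, with 11.1% and 10.7% mitochondrial TPM. Clone 26, with the most mitochondrial TPM among monocytes at 25.1%, was the lowest for 4. Leaving out each clone in turn gave 44 genes higher and 0 lower each time.

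Many cytoskeletal genes are read by the serum response factor, which binds a DNA element called the CArG box and whose cofactor is held back by free actin molecules. Since the genes rose together, their promoters were searched for the box on both strands, in windows of 250 bases before to 50 bases after each gene start (RefSeq, build GRCm38.p6). Promoters were matched for 41 of the 46 genes, and Actb, Coro1b, Diaph1, Pak2 and Rac1 had no match. The box was found in 4 of the 41, which is 9.76%, against 1.81% of all 27025 promoters, 1.44% of the 7977 promoters of genes tested and 1.86% of the 2736 promoters of genes higher in monocytes. A match is a description of the sequence and not evidence of binding. The 4 windows are shown on the gene's strand, 5′ to 3′, with the box in capitals. They are those of Actg1 at chr11:120348446-120348745 (minus strand), Arpc4 at chr6:113377863-113378162 (plus strand), Myl6 at chr10:128492960-128493259 (minus strand) and Vcl at chr14:20929148-20929447 (plus strand).
Actg1: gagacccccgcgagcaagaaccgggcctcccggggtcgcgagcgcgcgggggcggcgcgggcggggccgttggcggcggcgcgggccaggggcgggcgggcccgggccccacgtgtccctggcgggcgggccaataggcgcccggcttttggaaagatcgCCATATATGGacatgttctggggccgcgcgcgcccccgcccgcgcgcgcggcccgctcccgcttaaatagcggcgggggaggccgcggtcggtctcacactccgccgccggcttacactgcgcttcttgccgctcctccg
Arpc4: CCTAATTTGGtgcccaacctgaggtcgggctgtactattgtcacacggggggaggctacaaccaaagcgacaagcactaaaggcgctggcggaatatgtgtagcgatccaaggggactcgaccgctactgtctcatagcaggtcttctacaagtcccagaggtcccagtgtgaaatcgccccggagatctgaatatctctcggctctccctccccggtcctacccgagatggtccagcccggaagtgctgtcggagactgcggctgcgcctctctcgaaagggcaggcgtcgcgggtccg
Myl6: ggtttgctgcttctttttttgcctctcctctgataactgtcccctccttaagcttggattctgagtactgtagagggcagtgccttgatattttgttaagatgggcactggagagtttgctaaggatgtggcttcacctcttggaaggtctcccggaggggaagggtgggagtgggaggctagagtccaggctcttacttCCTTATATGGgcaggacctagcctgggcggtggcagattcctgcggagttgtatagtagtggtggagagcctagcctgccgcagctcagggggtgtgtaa
Vcl: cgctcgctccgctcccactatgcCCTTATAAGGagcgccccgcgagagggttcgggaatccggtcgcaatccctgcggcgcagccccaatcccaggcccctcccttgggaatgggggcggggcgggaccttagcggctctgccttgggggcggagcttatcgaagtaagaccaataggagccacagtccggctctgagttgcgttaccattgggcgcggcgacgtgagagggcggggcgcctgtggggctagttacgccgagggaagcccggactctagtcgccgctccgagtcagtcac
The box begins at -90 in Actg1, -250 in Arpc4, -50 in Myl6 and -227 in Vcl relative to the gene start. The starts used for Actg1 and Myl6 lie inside the GENCODE genes. These 4 genes rose by log2 0.81, 0.90, 0.94 and 0.75, all less than the median of 1.16 over the 46 genes.

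All 6 genes for actins and proteins that bind single actin molecules rose, with a median log2 change of 0.90. Actb, the beta-actin gene (chromosome 5, 142903115 to 142906754, build GRCm38), had a lowest, median and highest level of 1760, 4758 and 7845 TPM in progenitors and 7520, 16940 and 60408 TPM in monocytes. It rose in all 24 clones, and only 1 monocyte library, that of clone 22, reached into the progenitor range. Its log2 change was 1.88 (SE 0.15, adjusted p = 1.08e-11). The top value belonged to clone 8, in which Actb alone took 6.08% of the TPM. Actg1, the gamma-actin gene, ranged from 425 to 1499 TPM around a median of 890 in progenitors and from 529 to 2915 TPM around 1721 in monocytes, and the groups overlapped. It rose by log2 0.81 (SE 0.15, adjusted p = 2.56e-05), in 21 clones.

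Tmsb4x, the main thymosin, which sequesters single actin molecules, rose in all 24 clones. Its lowest, median and highest levels were 296, 728 and 1242 TPM in progenitors and 1284, 4191 and 6485 TPM in monocytes, without overlap. The log2 change was 2.59 (SE 0.09, adjusted p = 6.38e-19). Its relative Tmsb10 stood at 28.7, 66.6 and 97.3 TPM in progenitors and at 19.5, 128 and 367 TPM in monocytes, so that the monocyte libraries lay on both sides of the progenitor range. It rose by 0.81 (SE 0.24, adjusted p = 0.00471) in 17 of 24 clones. This call was lost, at 0.56 and an adjusted p of 0.0549, when mitochondrial, predicted (Gm) and pseudogene entries were taken out of the totals, a scaling under which 28.3% of all genes were higher. Of the 31-base words of the Tmsb10 transcripts, 32.0% occur in other genes' transcripts, most of them in Gm9844, and the sum of both entries changed by 0.81. Pfn1, profilin, rose by 0.98 (SE 0.12, adjusted p = 2.28e-08), from a median of 503 to 1062 TPM. Cfl1, cofilin, which takes old filaments apart, rose by 0.57 (SE 0.11, adjusted p = 4.68e-05), from a median of 441 to 662 TPM, the smallest change of the 44 genes called.

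**Figure D2:**
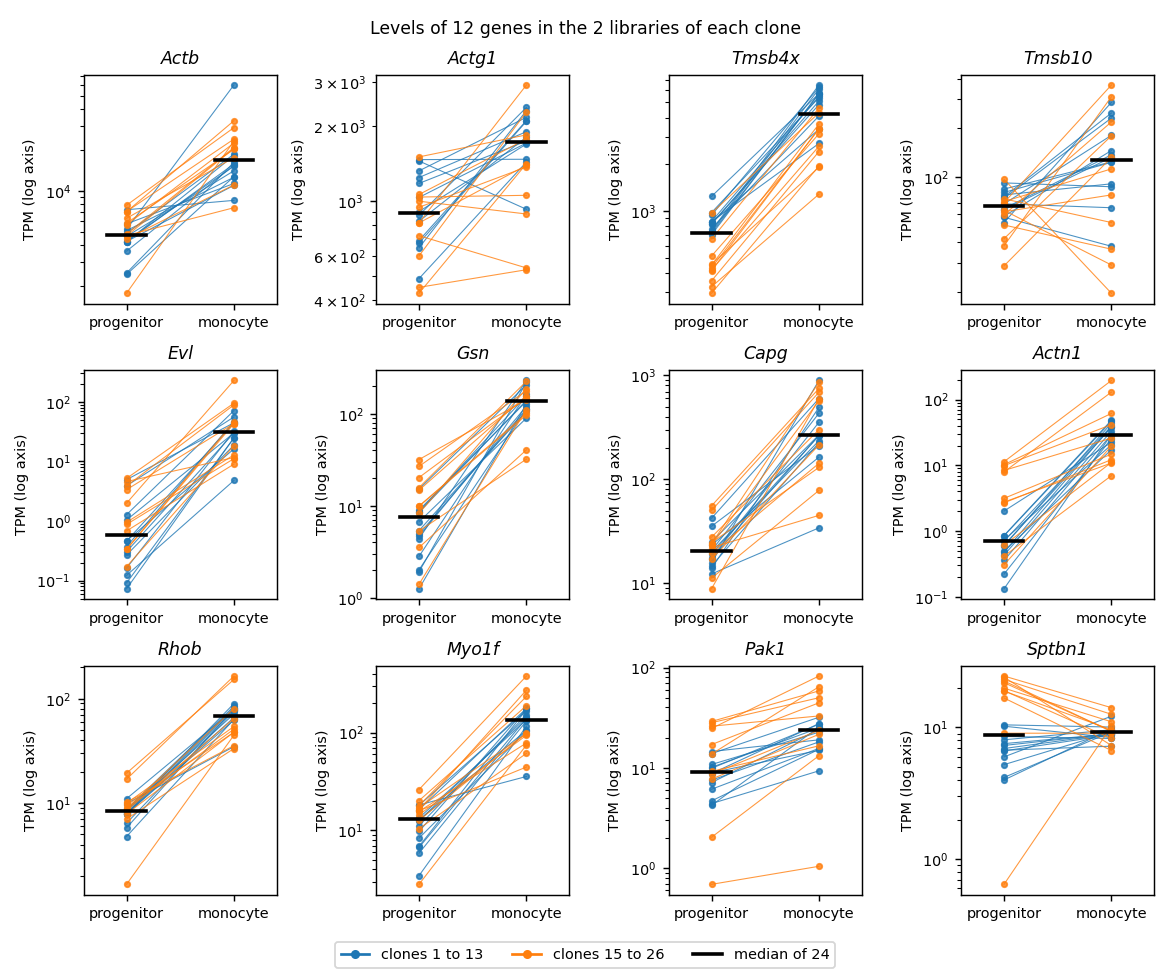
TPM of 12 of the genes in the progenitor and the monocyte library of each clone, on log axes, with a line for each clone, coloured by clone set, and a bar at the median of 24. Tmsb4x, Gsn, Rhob and Myo1f separate without overlap, Tmsb10 lines run both up and down, and Sptbn1 has medians of 8.8 and 9.24 TPM.

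All 7 genes of the Arp2/3 complex, which seeds branched filaments at the leading edge, rose, and they rose by similar amounts, from log2 0.90 for Arpc4 to 1.52 for Arpc5. Arpc5 had 25.3, 60.6 and 82.9 TPM (lowest, median, highest) in progenitors and 89.5, 166 and 275 TPM in monocytes, and the groups did not overlap. Its adjusted p was 4.90e-12, with an SE of 0.12. Actr2 and Actr3, the actin-related subunits, both rose by 1.13, with SEs of 0.16 and 0.15 and adjusted p-values of 3.68e-07 and 2.46e-07. In progenitors the medians of the 7 subunits ran from 36.3 TPM for Actr2 to 525 TPM for Arpc1b, and in monocytes from 79.0 TPM for Actr2 to 1205 TPM for Arpc1b. Actr2 was the lowest and Arpc1b the highest of the 7 in both states. Of the 31-base words of Actr3, 34.2% are shared, mainly with the pseudogene Gm8822.

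Among nucleation promoters and elongation factors 6 of 7 rose, and the elongation factors led. Evl, an Ena/VASP protein, was low in progenitors, with 0.0731, 0.574 and 5.19 TPM, and reached 4.80, 31.2 and 228 TPM in monocytes. It rose in all 24 clones, by 3.97 (SE 0.22, adjusted p = 9.14e-15), and the pseudocount of 1 TPM understates such a change from a low level. Fmnl1, a formin of blood cells, rose by 2.03 (SE 0.20, adjusted p = 1.15e-09), from a median of 32.4 TPM (7.25 to 61.4) to 110 TPM (38.0 to 376). Vasp rose by 1.65 (SE 0.25, adjusted p = 1.35e-06), from 88.2 TPM (18.1 to 143) to 306 TPM (63.9 to 1138), with overlap. Diaph1, another formin, and Wipf1, which binds and protects the Was protein, rose by 1.20 and 1.19. Was, the activator of Arp2/3 that is lost in Wiskott-Aldrich syndrome, rose by 0.71. Wasf2, a subunit of the WAVE complex that activates Arp2/3 downstream of Rac, was scattered, with 7.64, 72.6 and 156 TPM in progenitors and 4.55, 105 and 266 TPM in monocytes. Its estimate of 0.55 (SE 0.34, adjusted p = 0.153) did not pass. The estimate was 1.11 in clones 1 to 13 alone, where it passed with an adjusted p of 0.0135, and -0.11 in clones 15 to 26 alone, where it did not.

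The 3 coronins, which bind filaments and Arp2/3 and help to turn branches over, all rose. Coro1a, the coronin of leukocytes, had 106, 308 and 480 TPM in progenitors and 363, 882 and 2042 TPM in monocytes, and changed by 1.49 (SE 0.12, adjusted p = 3.53e-11). Coro1c changed by 1.52 (SE 0.23, adjusted p = 1.43e-06) and Coro1b by 1.23 (SE 0.16, adjusted p = 7.80e-08). The monocyte levels of Coro1c were wide, from 31.3 TPM in clone 19 to 698 TPM in clone 15.

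Genes for capping, severing and bundling changed most of the roles, with all 4 higher and a median of 3.59. Gsn, gelsolin, which severs and caps filaments in the presence of calcium, lies on chromosome 2 (35256380 to 35307892). It had 1.25, 7.49 and 31.9 TPM in progenitors and 32.2, 139 and 230 TPM in monocytes, without overlap, though the highest progenitor (clone 26) and the lowest monocyte (clone 22) library nearly met. Its change of 4.02 (SE 0.22, adjusted p = 4.46e-15) was the largest of the 46. Capg, a gelsolin relative that caps without severing, had 8.86, 20.4 and 55.6 TPM in progenitors and 34.2, 267 and 894 TPM in monocytes, a change of 3.63 (SE 0.23, adjusted p = 1.25e-13). Actn1, alpha-actinin, which crosslinks filaments, had 0.132, 0.715 and 11.3 TPM in progenitors and 6.97, 29.4 and 196 TPM in monocytes. It changed by 3.56 (SE 0.23, adjusted p = 1.25e-13). Capg and Actn1 overlapped between states but were higher in the monocyte library of every clone. Lcp1, the plastin of leukocytes, rose by 1.42 (SE 0.20, adjusted p = 5.86e-07), from a median of 108 to 312 TPM. Vim, vimentin, an intermediate filament protein listed with the actin genes, rose by 1.42 (SE 0.16, adjusted p = 1.35e-08) in all 24 clones, from 322 TPM (112 to 424) to 787 TPM (347 to 1441).

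Signalling genes rose as well. Rhob changed most among them, with 1.66, 8.44 and 19.3 TPM in progenitors against 33.3, 68.6 and 165 TPM in monocytes, without overlap. It changed by 2.87 (SE 0.13, adjusted p = 4.62e-17). Rhog, which acts upstream of Rac, rose by 1.55 (SE 0.14, adjusted p = 2.88e-10) in all 24 clones, from a median of 81.1 to 235 TPM. Rhoa, which drives contraction, Cdc42, which drives filopodia, and Rac1, which drives lamellipodia, rose by 1.04, 1.09 and 0.76. Of the 31-base words of Rac1, 51.3% are shared with other genes' transcripts, mainly Daglb, so its level is less certain than those of the others. The kinases downstream of Rac and Cdc42 rose by 1.23 (Pak1, SE 0.12, adjusted p = 8.03e-10) and 0.84 (Pak2, SE 0.17, adjusted p = 6.88e-05).

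Of the 3 membrane linkers, Msn (moesin) rose by 1.47 (SE 0.19, adjusted p = 1.31e-07), from 39.3 TPM (9.15 to 61.6) to 102 TPM (27.7 to 216). Ezr (ezrin) rose by 0.98 (SE 0.24, adjusted p = 6.14e-04), from 26.4 TPM (5.46 to 56.2) to 51.8 TPM (14.6 to 95.3). Sptbn1, a beta spectrin of the membrane skeleton, was the one gene whose median barely moved, with 0.644, 8.80 and 24.6 TPM in progenitors and 6.68, 9.24 and 14.1 TPM in monocytes. Its estimate was -0.08 (SE 0.19, adjusted p = 0.727), turned to 0.01 without the 20 most abundant monocyte genes, and was 0.37 in clones 1 to 13 alone, with an adjusted p of 0.0149. Its spread over clones was wide in progenitors and narrow in monocytes, with SDs of log2 TPM of 1.19 and 0.25.

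All 5 myosin genes rose. Myo1f, a single-headed myosin of leukocytes, had 2.81, 13.1 and 26.2 TPM in progenitors and 35.6, 133 and 378 TPM in monocytes, without overlap, a change of 3.28 (SE 0.19, adjusted p = 1.05e-14). Myh9, the heavy chain of non-muscle myosin IIA, had 11.3, 61.2 and 227 TPM in progenitors and 42.7, 289 and 1018 TPM in monocytes, and changed by 2.08 (SE 0.33, adjusted p = 3.10e-06) in 19 clones. Myo1g rose by 1.05 (SE 0.18, adjusted p = 1.42e-05). The light chains Myl6 and Myl12a rose by 0.94 and 0.87, to medians of 1151 and 255 TPM. Part of Myl12a (22.9% of its 31-base words) is shared, mainly with its neighbour Myl12b, and the sum of both changed by 0.94. The integrin linkers Tln1 (talin), Vcl (vinculin) and Fermt3 (kindlin-3, which switches on leukocyte integrins) rose by 1.72 (SE 0.38, adjusted p = 2.55e-04), 0.75 (SE 0.25, adjusted p = 0.0101) and 0.61 (SE 0.15, adjusted p = 6.29e-04). Tln1 ran from 8.54 to 263 TPM around 48.2 in progenitors and from 30.4 to 574 TPM around 200 in monocytes. Vcl ran from 0.699 to 13.5 TPM around 5.15 and from 0.976 to 17.9 TPM around 12. The states overlapped widely for all 3 linkers.

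The genes did not all rise by the same amount, and 10 ratios between paralogs or partners within a library, which no scaling of TPM can move, show how the mixture shifted. Each ratio was tested by changing the sign of the 24 within-clone differences (2-sided permutation test, 100000 draws, Benjamini-Hochberg over the 10). In 7 ratios the permutation p was the smallest that the draws can give, with an adjusted p of 1.43e-05. Beta-actin gained on gamma-actin: the ratio of Actb to Actg1 went from a median of 4.96 to 8.91, a log2 change of 1.07 (SE 0.18), upward in 24 of 24 clones. Of the 31-base words of Actg1 and Actb, 40.2% and 23.6% are shared with other genes' transcripts. Tmsb4x to Tmsb10 went from 10.3 to 32.7, by 1.78 (SE 0.28), upward in 21 clones. In the Arp2/3 complex Arpc1b gained on Arpc1a in 24 clones, from 7.81 to 14.2, by 0.96 (SE 0.09). Arpc1a itself changed by 0.07 (SE 0.11, adjusted p = 0.588 by limma), from a mean of 73.3 to 79.5 TPM, and is not among the 46. Evl to Vasp changed by 3.79 (SE 0.48, upward in 22 clones) and Actn1 to Actn4 by 3.71 (SE 0.28, upward in 24 clones), from 0.0267 to 0.444. Both rest on low progenitor levels of Evl and Actn1, and with 1 TPM added to both terms the changes were 2.31 and 2.64.

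**Figure D3:**
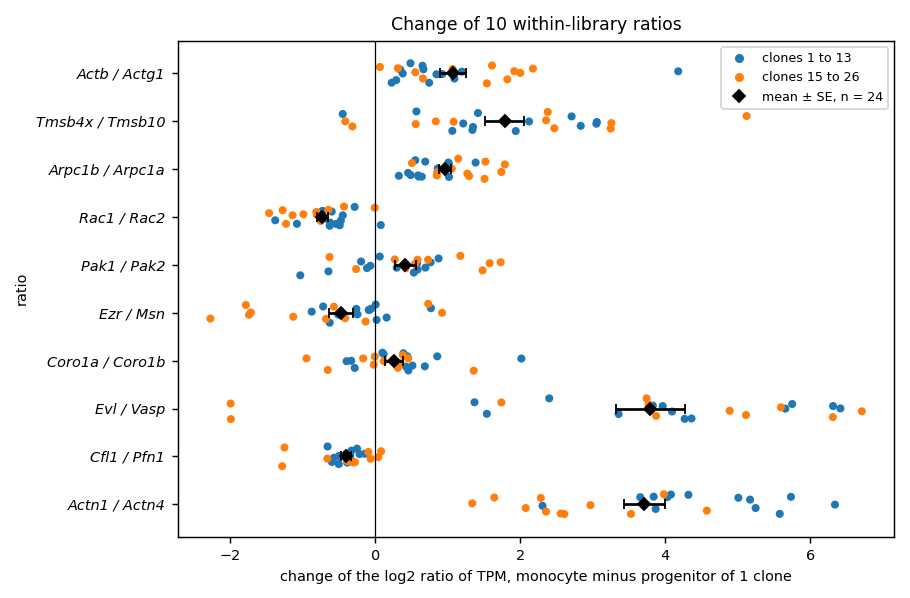
Change of 10 within-library ratios from the progenitor to the monocyte library of each clone, in log2 units, coloured by clone set, with the mean and standard error of 24 clones. All 24 points lie to the right of 0 for Actb to Actg1, Arpc1b to Arpc1a and Actn1 to Actn4, and 22 of 24 lie to the left for Cfl1 to Pfn1.

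The ratio of Rac1 to Rac2, the Rac of blood cells, fell from 0.0729 to 0.0457, by -0.73 (SE 0.08), with 1 clone going up. Cfl1 to Pfn1 fell from 0.809 to 0.608, by -0.41 (SE 0.07), with 2 clones going up. Ezr to Msn changed by -0.47 (SE 0.17, permutation test adjusted p = 0.0102), upward in 6 clones, and Pak1 to Pak2 by 0.41 (SE 0.14, permutation test adjusted p = 0.0102), upward in 17. Both passed over all clones but not in clones 1 to 13 alone, at -0.20 and 0.18. Coro1a to Coro1b, at 0.26 (SE 0.13), had an adjusted p of 0.0523 in the permutation test and did not pass.

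To see whether the wider pathway moved with these genes, 134 other actin genes of the same roles were listed, of which all were in the table (Mrtfa and Mrtfb under their older symbols) and 107 passed the filter. Of the 107, 74 rose, 11 fell and 22 did not pass, with a median log2 change of 0.69, where 32.4% of all genes tested rose and 36.5% fell. By role the counts of higher and lower were 11 and 0 of 13 for actins and monomer binding, 14 and 1 of 17 for nucleation and elongation, 12 and 4 of 20 for capping and bundling, 8 and 0 of 8 for myosins and 5 and 1 of 7 for integrin linkers. The largest rise was that of Lsp1, a filament-binding protein of leukocytes, from 6.97 ± 10.9 to 492 ± 411 TPM (SD, n = 24), a log2 change of 6.41. Dstn, a cofilin relative, rose by 2.89, the GTPase gene Rhou by 2.82, Tpm4, a tropomyosin, by 2.49 and Cotl1, coactosin, by 2.44. Rac2 rose from 1120 ± 314 to 3319 ± 1579 TPM, by 1.49.

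The genes that fell show that the rise did not reach every actin gene. Cnn3, a calponin that decorates filaments, fell from 321 ± 105 to 24.4 ± 34.2 TPM, by -4.28 (SE 0.28, limma adjusted p = 2.31e-13), and was higher in the monocyte library of none of the 24 clones. Coro2a fell by -1.27, Arpc5l, the alternative to Arpc5, by -0.61, Rdx (radixin) by -0.45 and Parvg, a parvin, by -0.44. In 3 roles the changes thus ran both ways: Arpc5 rose and Arpc5l fell, the 3 listed coronins rose and Coro2a fell, and Msn and Ezr rose while Rdx fell. The differences between these relatives were not tested.

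The clones are numbered 1 to 13 and 15 to 26, and earlier results of these data parted them into these sets of 13 and 11 clones, which the labels do not name. In clones 1 to 13 alone all 46 genes rose, against 38.8% of all genes. In clones 15 to 26 alone 33 rose and 0 fell, against 17.8% higher and 27.4% lower of all genes, and 13 passed in neither direction: Tmsb10, Was, Wasf2, Diaph1, Rhoa, Pak2, Ezr, Sptbn1, Myo1g, Myh9, Fermt3, Tln1 and Vcl. The sets differ in number, so the difference itself was tested as the interaction of state and set. It passed for Gsn, Actn1 and Tln1, 3 of 46 genes, against 11.5% of all genes tested, and all 3 changed less in clones 15 to 26, as did 9.79% of all genes tested. At an unadjusted p under 0.05 there were 8 of the 46, which is 17.4%, against 28.8% of all genes.

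Tln1 differed most. In clones 1 to 13 it went from 8.54, 30.3 and 93.7 TPM (lowest, median, highest) in progenitors to 63.7, 283 and 574 TPM in monocytes, higher in 12 of 13 clones. In clones 15 to 26 it went from 11.5, 126 and 263 TPM to 30.4, 66.4 and 505 TPM, higher in 7 of 11. The log2 changes were 3.01 (SE 0.37) and 0.19 (SE 0.41), and the difference was -2.83 (SE 0.55, limma adjusted p = 0.00222). Actn1 changed by 4.36 (SE 0.21) and 2.61 (SE 0.23), a difference of -1.75 (SE 0.31, adjusted p = 8.78e-04), and its progenitor median was 0.590 TPM in the first set and 3.14 TPM in the second. Gsn changed by 4.61 (SE 0.25) and 3.33 (SE 0.27), a difference of -1.28 (SE 0.37, adjusted p = 0.0260), with progenitor medians of 4.92 and 9.95 TPM and monocyte medians of 137 and 142 TPM. Gsn and Actn1 rose in every clone of both sets. The Gsn call was lost without clone 22 (adjusted p = 0.0502), without the block on clones (0.0710) and with the clone as a random effect (0.0501). The number of genes with an interaction was 8 without clone 8, 9 without clone 21 and 8 without clone 24, where the shares of all genes were 21.9%, 18.4% and 27.4%.

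**Figure D4:**
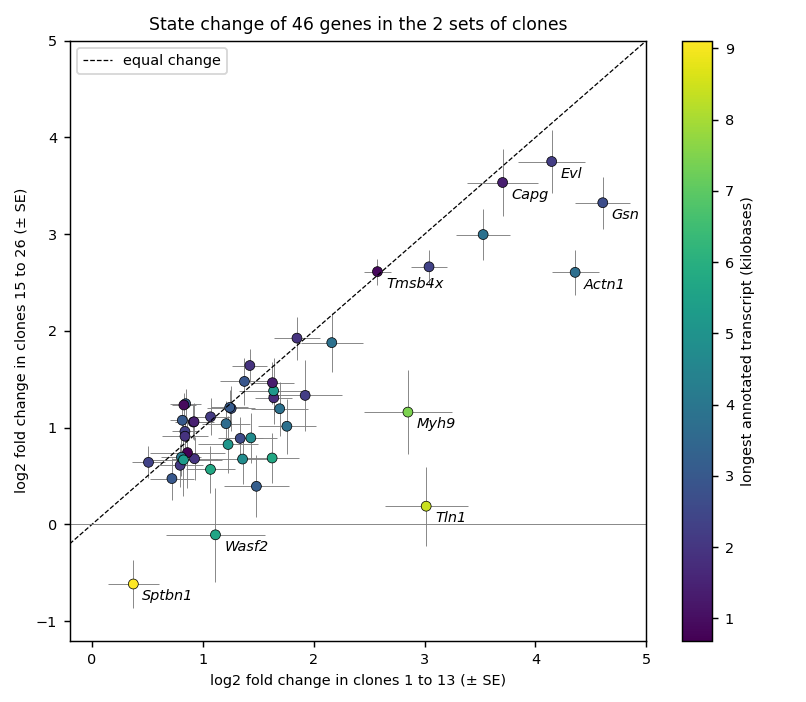
Log2 fold change from progenitor to monocyte of the 46 genes in clones 1 to 13 (horizontal) and in clones 15 to 26 (vertical), each with its standard error, coloured by the length of the longest annotated transcript. Most genes lie near the dashed line of equal change, and Tln1 (3.01 and 0.19), Myh9 (2.85 and 1.16), Actn1 (4.36 and 2.61) and Gsn (4.61 and 3.33) lie below it.

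The sets already differed before the change of state. Among progenitors 10 of the 46 genes differed between sets, against 39.4% of all genes tested. Higher in clones 15 to 26 were Myh9 by 1.57 (SE 0.41), Tln1 by 1.55 (SE 0.43), Actn1 by 1.53 (SE 0.34), Sptbn1 by 1.05 (SE 0.32), Diaph1 by 0.80 (SE 0.25) and Fmnl1 by 0.76 (SE 0.29), 6 genes against 28.5% of all. Lower were Tmsb4x by -0.88 (SE 0.14), Arpc5 by -0.39 (SE 0.13), Arpc4 by -0.38 (SE 0.12) and Myl6 by -0.32 (SE 0.10), 4 genes against 10.9%. In TPM the median of Myh9 was 33.3 in progenitors of the first set and 166 in those of the second, and that of Sptbn1 was 6.92 and 19.9. The Fmnl1 call (adjusted p = 0.0421) and the Myl6 call (adjusted p = 0.0124) were lost under other scalings, at 0.43 with median-of-ratios factors and at -0.13 with quantile normalization. The Fmnl1 call held in 8 of the 24 fits that each left out 1 clone, and the Arpc4 call was lost without clones 19, 21, 24 and 26, at -0.19. Without clone 24 the count was 20 genes, against 55.5% of all genes.

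Among monocytes 1 gene, Tmsb4x, differed between sets, against 7.11% of all genes. It was lower in clones 15 to 26, as were 3.19% of all genes, by -0.85 (SE 0.20, limma adjusted p = 0.00862), with medians of 5469 and 3144 TPM. In progenitors its medians were 828 and 432 TPM (adjusted p = 5.34e-05). The set difference was thus carried at a similar size in both states, and the state change of Tmsb4x was 2.58 and 2.61 in the 2 sets. Without clone 8, 15 or 20 the count in monocytes was 3 genes, with Tln1 among them each time, against 11.4%, 7.98% and 9.42% of all genes.

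Mitochondrial transcripts and gene length moved with the sets. Mitochondrial genes took a median of 5.39% of the TPM (3.44 to 8.38) in progenitors of the first set and 11.9% (8.45 to 16.7) in those of the second. In monocytes the medians were 4.62% (3.06 to 11.1) and 10.7% (1.98 to 25.1). Across the 46 genes the difference of the state change went with the length of the longest annotated transcript, with a Spearman correlation of -0.61, against -0.38 across the 10910 genes tested that have a length. These are descriptions across genes measured in the same libraries. The 9 genes of at least 5000 bases had a median difference of -0.94 and the 37 shorter ones of -0.17, and over all genes the medians were -0.61 and -0.20. Tln1, Myh9 and Sptbn1 have the longest transcripts of the 46, with 8393, 7433 and 9107 bases, while Gsn and Actn1, with 2653 and 3734 bases, are not long. The part of these properties in the differences between sets was not tested.

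The last question was whether a clone that is high for a gene as a progenitor is also high as a monocyte. Progenitor and monocyte levels were correlated over the 24 clones after centring each set, for genes with a mean of at least 1 TPM and an SD of at least 0.25 (log2) in both states, with a 1-sided permutation test of 100000 pairings within sets. Arpc3 and Sptbn1 varied too little in monocytes, and 44 genes were tested. The median r was 0.05, against 0.08 over all 9570 genes tested. Within the sets, the median r over all genes tested was -0.065 in the first set alone and 0.140 in the second alone. Over all clones the test passed for 1 gene, Pak1, against 0.261% of all genes. Without centring the sets, Tmsb4x passed as well as Pak1, against 3.61% of all genes.

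Pak1, a kinase that Rac and Cdc42 switch on, had Pearson's r of 0.851 (permutation p = 3.00e-05, adjusted p = 0.0201) and a Spearman correlation of 0.753 (permutation p = 1.40e-04). Clone 26 was the lowest in both states, with 0.690 TPM as a progenitor and 1.04 TPM as a monocyte, while the medians were 9.08 and 23.9 TPM. The highest progenitor was clone 16, with 29.0 TPM, and the highest monocyte clone 20, with 82.3 TPM. Without the 2 clones farthest from the median r was 0.652, and without clone 26 the adjusted p was 0.0889 at r of 0.740, so the call rests on that clone. Within the sets r was 0.523 and 0.899, and neither passed on its own, with adjusted p-values of 0.875 and 0.0544. For Actn1 r was 0.708 (adjusted p = 0.146), and it was -0.01 in the first set and 0.779 in the second. For Actb, the most abundant of these genes, r was 0.085 (adjusted p = 0.733).

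**Figure D5:**
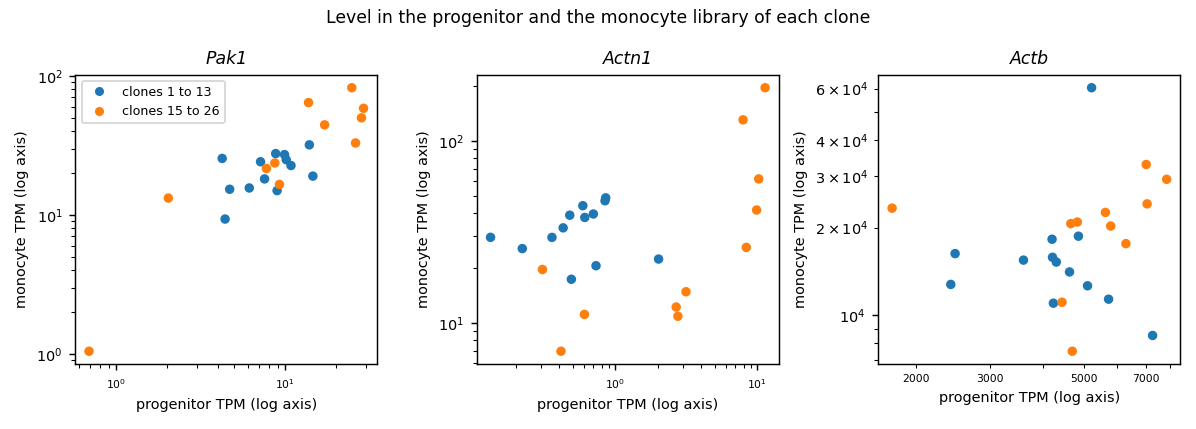
TPM in the progenitor library (horizontal) against the monocyte library (vertical) of the same clone for Pak1, Actn1 and Actb, on log axes, coloured by clone set. Pak1 rises from clone 26 at 0.690 and 1.04 TPM, and for Actb the highest monocyte, clone 8 at 60408 TPM, has a progenitor level near the middle.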

How the data were processed

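RNA libraries of 24 progenitor and 24 monocytic cultures paired by clone, per the design text and the titles, were analysed. The authors deposited TPM per gene made with Salmon on build mm10, per the submitters' processing notes; the sources used here give no version. TPM keep no read depth, so the depth is unknown. Columns summed to 982723 to 999054, and 26 rows whose names were dates were left out. From the deposited TPM, log2(TPM + 1) was tested with limma 3.58.1 (trend) in R 4.3.3 on 11072 genes, with the clone as a block. The members and lists were chosen with earlier results of these data known. All 46 genes are described by role, the 3 largest changes of a role in full; other pathway genes are the 5 largest each way at 10 TPM or more. Deviations of a clone's libraries from the state means correlated above 0.1 in 18 of 24 pairs, and in 12 with sets centred. These 12 were 2 of the 13 pairs of the first set and 10 of the 11 pairs of the second. With sets centred, the libraries of the first set thus gave little sign of the pairing by clone. This limits the clone block and the test of kept differences in that set. On simulated data of 11072 genes, 50 genes were changed by log2 0.5, 100 by 1 and 50 by 2. The fit recovered 32%, 91% and 100% of these, with 8 false calls among the unchanged genes. The simulation held no clone sets and few changed genes, while 68.8% of genes were called in the data, so these rates need not carry over. Alternatives covered the pseudocount, filters, scalings, the block, the sets and leaving out clones. Transcript lengths, gene positions and shared words of 31 bases came from GENCODE M21. Results of 1 withheld item are not reported here.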

Additional observations from a re-analysis of the deposited data

Results flagged for a closer look

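The change from progenitor to monocyte differed between clones 1 to 13 and clones 15 to 26 for 3 of the 46 genes, by the test of the interaction itself. That is 6.52% of the 46, a smaller share than the 11.5% of all genes tested. The log2 difference, second set minus first, was -1.28 for Gsn, -1.75 for Actn1 and -2.83 for Tln1. The labels do not name the sets, so a batch and a property of the clones cannot be told apart.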

How the results depend on the processing

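The 44 state calls held with every clone left out in turn. In 630 of 646 refits of single genes the direction and the side of the threshold stayed. Estimates changed sign for Wasf2 (-0.11 in clones 15 to 26 alone) and Sptbn1 (0.37 in clones 1 to 13 alone, 0.013 without the 20 most abundant monocyte genes). With no replicate block, all 46 state calls kept their side, while the Gsn interaction (adjusted p = 0.0710) and the ratio of Pak1 to Pak2 (0.41, permutation test adjusted p = 0.185) no longer passed. Without mitochondrial, Gm and pseudogene entries the median log2 change of all genes moved to -0.25 and that of the 46 to 0.93, with 28.3% of all genes higher. Other pathway genes higher in monocytes numbered 45 in clones 15 to 26 alone (74 in all clones), where 17.8% of all genes were higher (32.4% in all clones).

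Counts of set differences moved with the scaling and the clones included, and so did the shares of all genes. Interactions (3) numbered 5 without mitochondrial, Gm and pseudogene entries (15.4% of all genes), 7 with median-of-ratios factors (17.9%), 7 with quantile normalization (18.1%), 5 without the 20 most abundant monocyte genes (14.2%) and 10 without clones 19, 21, 24 and 26 (26.5%). Progenitor set differences (10) numbered 24, 16 and 29 with median-of-ratios factors, with quantile normalization and without the 4 clones, against 52.7%, 48.8% and 68.9% of all genes. Their main direction also changed. In the main fit 6 were higher and 4 lower in clones 15 to 26. With median-of-ratios factors 5 were higher and 19 lower, with quantile normalization 10 and 6, and without the 4 clones 23 and 6. Monocyte set differences (1) numbered 2 with median-of-ratios factors, quantile normalization or without the 20 genes, against 12.2%, 18.2% and 8.69% of all genes. Genes with kept clone differences (1) numbered 2 without centring (3.61% of all genes tested) and 2 with median-of-ratios factors (0.686%). They numbered 0 in clones 1 to 13 alone (0%), in clones 15 to 26 alone (0.296%) and without the 4 clones (0.108%). Among ratios, Pak1 to Pak2 (0.18) and Ezr to Msn (-0.20) did not pass in clones 1 to 13 alone. Coro1a to Coro1b passed there (0.38), without the 4 clones (0.28) and with 1 TPM added (0.26). The causes were not tested.

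Leaving out each clone in turn was an alternative chosen after seeing the data. It gave 44 members higher and 0 lower, and 71 to 77 other genes higher and 10 to 12 lower. Of all genes tested, 67.3% to 70.8% were then called in either direction. Interactions numbered 2 to 9, against 6.55% to 27.4% of all genes. Set differences numbered 9 to 20 in progenitors (34.8% to 55.5% of all genes) and 1 to 3 in monocytes (5.43% to 11.4%). Kept differences numbered 0 to 1 (0.209% to 0.569%). The ratios ranged from 0.94 to 1.12 (Actb to Actg1), 1.64 to 1.88 (Tmsb4x to Tmsb10), 0.93 to 0.99 (Arpc1b to Arpc1a), -0.76 to -0.70 (Rac1 to Rac2), 0.36 to 0.48 (Pak1 to Pak2), -0.53 to -0.39 (Ezr to Msn), 0.18 to 0.31 (Coro1a to Coro1b), 3.67 to 4.05 (Evl to Vasp), -0.43 to -0.37 (Cfl1 to Pfn1) and 3.60 to 3.81 (Actn1 to Actn4). TPM hold no depth, so counting error at low levels, as for Evl, cannot be given.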
